A study of Mus musculus with 5 samples.

Results

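RXRα occupancy near the Krüppel-like factor (KLF) genes was examined in alveolar macrophages (AMs), which live in the airspace of the lung, by HT-ChIPmentation, a chromatin immunoprecipitation in which the library adapters are inserted by Tn5 on the beads. The 9 genes described here (Klf2, Klf3, Klf4, Klf6, Klf7, Klf9, Klf10, Klf11 and Klf13) were chosen by the presence of RXRα peaks in these same lists, so their peak counts in AMs with RXR are a description. A peak was given to a gene when the transcription start site (TSS) nearest to its midpoint, among the protein-coding transcripts of GENCODE for mm10, belonged to that gene. The rule took 45 peaks from WT A (of 4751 in its list), 76 from WT G (of 9766), 1 from KO A (of 83) and 2 from KO G (of 208).

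The AMs came from bronchoalveolar lavage of 9-week-old mice of the C57BL/6J background and were sorted by FACS. Both genotypes carried floxed Rxra and Rxrb: the WT libraries (A and G) were CD11cCre- Rxrabfl/fl and the KO libraries (A and G) CD11cCre+ Rxrabfl/fl, and 1 input library of the WT genotype was the control for all peak calls. Cre was driven by the Cd11c promoter, which is active in AMs and also in dendritic cells, so the deletion was not restricted to AMs. Whether the letters A and G stand for separate animals or pools was not given in the sources used here, and with 2 libraries per genotype the spread may be technical. Peak lists hold no RNA level, so the deleted genes could not be checked in each library. In bulk libraries, fewer cells with bound RXRα and less bound RXRα per cell cannot be told apart.

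KLF proteins are zinc-finger transcription factors that bind GC-rich and CACCC sequences. They act as activators or repressors, and in macrophages several of them are known to set the balance between inflammatory and resting states. RXRα is a nuclear receptor that pairs with PPARγ, LXR and other receptors, and its pairs bind direct repeats of the hexamer AGGTCA. DR1, the repeat with 1 base between the hexamers, is the known element of PPAR-RXR pairs.

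Overlapping peaks of WT A and WT G were merged into regions, and those with a peak in both lists were kept. There were 3423 such regions, of which 28 lay nearest to a KLF gene of the 9. They were spread over 8 genes: 16 regions belonged to Klf6, 3 each to Klf4 and Klf13, 2 to Klf2, and 1 each to Klf3, Klf7, Klf9 and Klf10. Klf11 had none. Where starts of all gene types were used, 13 regions of 4 genes were left, 8 of them at Klf6. The regions given to other gene types included all those beyond 10 kb and also the only regions of Klf3, at 3.11 kb, and of Klf9, at −5.47 kb. Where an overlap of at least 50% of both peaks was asked for, 10 regions of 5 genes were left. Over all 21924 protein-coding genes, 8.82% had at least 1 region in both WT lists and 1.55% had 3 or more; since the rule chose the genes on these peaks, nothing is read from that difference.

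For the 6 genes with the strongest regions, the bases around the summit of a single WT library are shown. That library is the one where the region had the higher −log10 q. It was WT A for Klf4, Klf6, Klf7 and Klf13, and WT G for Klf2 and Klf10. For Klf13 and Klf4 the WT G summit lay 321 and 84 bp away, outside the bases shown. For each gene the region is the one with the highest −log10 q in the WT list where it was weaker. Each sequence is the plus strand of mm10 from 50 bases before to 50 bases after the summit, read from the RefSeq copy of the assembly. Capitals mark matches to the 10 motifs searched, and a sequence without capitals held none of them.
Klf6, chr13:5875649-5875749: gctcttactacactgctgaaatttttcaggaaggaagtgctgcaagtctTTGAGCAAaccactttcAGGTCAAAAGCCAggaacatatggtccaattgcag
Klf7, chr1:64301251-64301351: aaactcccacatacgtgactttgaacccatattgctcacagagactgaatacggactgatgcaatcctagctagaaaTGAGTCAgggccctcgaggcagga
Klf2, chr8:72317788-72317888: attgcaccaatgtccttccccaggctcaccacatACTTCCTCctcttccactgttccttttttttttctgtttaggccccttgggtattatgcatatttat
Klf13, chr7:63936493-63936593: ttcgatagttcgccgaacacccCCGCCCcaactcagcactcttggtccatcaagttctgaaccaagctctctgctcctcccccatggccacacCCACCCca
Klf4, chr4:55812271-55812371: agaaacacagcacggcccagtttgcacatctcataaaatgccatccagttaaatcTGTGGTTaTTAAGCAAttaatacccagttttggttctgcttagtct
Klf10, chr15:38290169-38290269: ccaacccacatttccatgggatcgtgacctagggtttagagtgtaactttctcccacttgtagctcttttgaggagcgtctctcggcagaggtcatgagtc

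In the Klf6 sequence the first run of capitals is a C/EBP match on the minus strand and the second is a DR1 match on the plus strand at chr13:5875715-5875727, with 2 mismatches. The Klf7 sequence held an AP-1 match 30 bases from the summit, and the Klf2 sequence a PU.1 match on the minus strand. The Klf13 sequence, in a promoter, held a GC box on the minus strand and a CACCC box on the plus strand, the kinds of sequence that KLF proteins themselves bind. The Klf4 sequence held a RUNX and a C/EBP match side by side.

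Klf6, a factor known to promote inflammatory gene expression in macrophages, had the most peaks of the 9. From the same assay, the paper lists it with apoptosis-related genes among those it assumes RXRs control directly. WT A held 26 peaks nearest to Klf6 and WT G held 33, whereas KO A had 0 and KO G had 1. All 26 peaks of WT A overlapped a peak of WT G (100%, exact 95% interval 86.8 to 100%), beside 83.2% of all WT A peaks. Of the 33 peaks of WT G 19 overlapped a peak of WT A (57.6%, 39.2 to 74.5%), beside 36.1% of all WT G peaks. Nothing is read from these differences, since the gene was chosen for its peaks. Intervals here are Clopper-Pearson and cover counting error only. They treat neighbouring peaks as independent, although 1 wide peak of WT G at −58.0 kb overlapped 3 peaks of WT A. Where an overlap of at least 50% of both peaks was asked for, 5 Klf6 regions were left. With its 16 regions Klf6 held the highest number of any protein-coding gene together with 1 other gene. The stretch of genome nearest to its TSS is long, 969 kb, and per 100 kb it held 1.65 regions, against 0.126 over all genes.

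**Figure D1:**
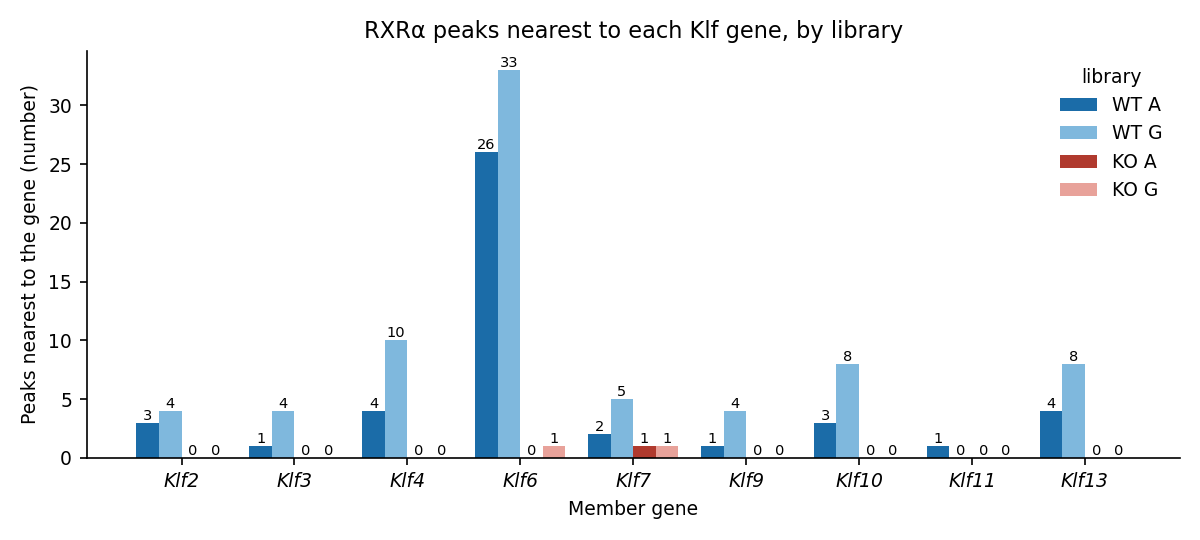
Number of RXRα peaks nearest to each KLF gene (y axis) in WT A, WT G, KO A and KO G (bars, with the count above each). Klf6 stands out with 26 and 33 peaks in the WT libraries, and KO peaks occur only at Klf6 and Klf7.

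The 16 Klf6 regions formed groups. Of these, 8 lay within 10 kb of the TSS, from −0.13 to 8.58 kb, and the same number overlapped the gene itself (chr13:5861482-5870394, plus strand). The 8 regions within 10 kb covered 5517 bp, part of it just outside the gene on either side. No other protein-coding gene had 8 or more regions within 10 kb, a cut that is the count of Klf6 itself. Some of these regions nearly touched, such as chr13:5862164-5863102 and chr13:5863175-5863717. Their number therefore depends on how peaks were split and merged. Outside the gene, 1 region lay at 14.3 kb and a pair at 25.8 and 27.4 kb downstream, inside an intron of the annotated gene Gm47507. On the upstream side, regions lay at −15.8, −58.0, −81.9, −82.9 and −349 kb. The region at −58.0 kb (chr13:5802159-5804848) was the widest, 2690 bp, and joined 3 peaks of WT A with 1 of WT G.

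The strongest KLF region in both WT libraries was that at 14.3 kb from Klf6 (chr13:5875273-5876244, intergenic). Its −log10 q was 23.3 in WT A, where it ranked 103 of 4751, and 21.8 in WT G, where it ranked 95 of 9766. Fold enrichment over the local background was 13.0 and 14.2, and the WT summits lay 14 bp apart. The region is the one that held the DR1 match. At the Klf6 promoter, by contrast, the region at −0.13 kb had −log10 q of 3.42 in WT A against 2.63 in WT G, the lowest of the 28 in each list. Its local background in WT A was 2.39 times that of the library.

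**Figure D2:**
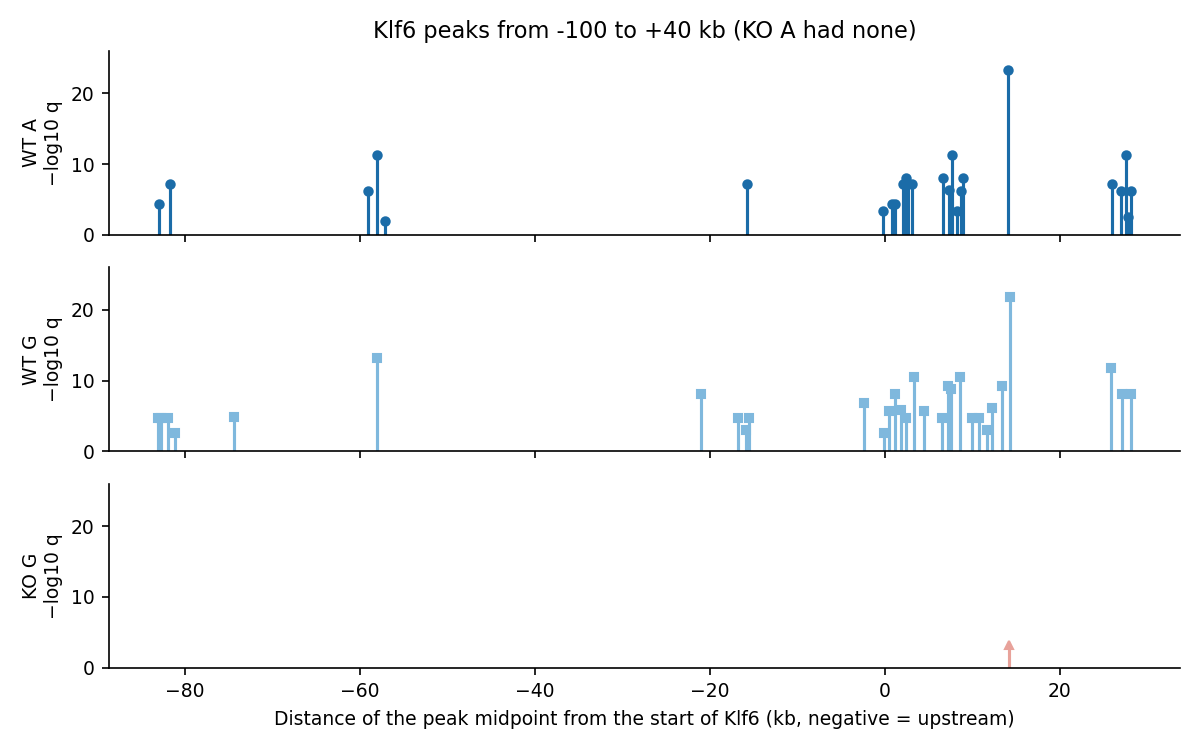
Strength of each Klf6 peak (y axis, −log10 q of the deposited lists) against the distance of its midpoint from the Klf6 TSS (x axis, kb, negative upstream) in WT A, WT G and KO G. The peak near 14.3 kb is the tallest in both WT libraries and the only one present in KO G.

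Klf2 and Klf4 are close relatives known to restrain inflammatory activation in myeloid cells and endothelium, and Klf4 is also needed for monocyte differentiation. Klf2 (chr8:72319033-72321656, plus strand) had 3 peaks in WT A, 4 peaks in WT G and 0 in both KO libraries. Its 2 regions flanked the gene, at −1.40 and 3.61 kb. The upstream region had −log10 q of 12.4 in WT A against 15.9 in WT G, and the downstream region 15.8 and 6.88. With a stretch of 58.1 kb nearest to its TSS, Klf2 held 3.44 regions per 100 kb, the highest of the 9 genes.

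Klf4 (chr4:55527143-55532466, minus strand) had 4 peaks in WT A, 10 peaks in WT G and 0 in both KO libraries. Its 3 regions were all far upstream, at −123, −133 and −279.8 kb, in intergenic sequence. The first had −log10 q of 8.06 in WT A against 4.84 in WT G, the second 5.13 and 6.85, and the third 8.06 and 6.88. Near the gene the WT libraries differed. WT G had 4 peaks between −2.11 and 0.48 kb of the TSS, with 7 to 12 fragments at the summit, and WT A had none there.

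Klf13 is a factor known from T cells, where it activates the chemokine gene Ccl5. It had 4 peaks in WT A, 8 peaks in WT G and 0 in both KO libraries. Klf13 (chr7:63886351-63938915, minus strand) has several annotated starts, and 2 of its 3 regions lay in promoters, at −0.48 and −0.44 kb of different starts. Their −log10 q was 8.002 and 8.06 in WT A, and 5.59 and 6.88 for WT G. The third region, at −73.0 kb in an intron of Gm32633, had 10.2 in WT A against 3.95 in WT G, where its local background was 2.15 times that of the library.

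Klf3 is a repressor that works through CtBP proteins. It had 1 peak in WT A against 4 in WT G, and its region lay in its own intron at 3.11 kb with −log10 q of 5.22 and 3.61. Klf9, a target of glucocorticoid and thyroid hormone receptors, had 1 and 4 peaks, and its region at −5.47 kb had 6.16 and 4.64. The Klf9 promoter itself was marked in WT G alone, by peaks at −0.56 and −0.10 kb.

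Klf10 and Klf11 are related factors induced by TGF-β, a signal needed for AM development. Klf10 had 3 peaks in WT A against 8 in WT G, but its only region in both lists lay at 9.01 kb downstream, with −log10 q of 6.16 and 8.04. Both WT libraries had peaks within 1 kb upstream of a Klf10 start, and these did not overlap: the WT A peak was at chr15:38299153-38299303 and the nearer WT G peak at chr15:38300640-38301030. Klf11 had 1 peak in WT A, at −0.30 kb with −log10 q of 4.31, and 0 in the other libraries.

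Klf7, known for roles in neurons and fat cells, had 2 peaks in WT A, 5 peaks in WT G and 1 in each KO library. Its only region in both WT lists (chr1:64300977-64302522) lay at −180.3 kb, in an intron of Gm28981 and 1.29 kb from a start of that gene. It was the second strongest of the 28 by the lower of the WT values, with −log10 q of 18.2 in WT A against 14.5 in WT G.

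**Figure D3:**
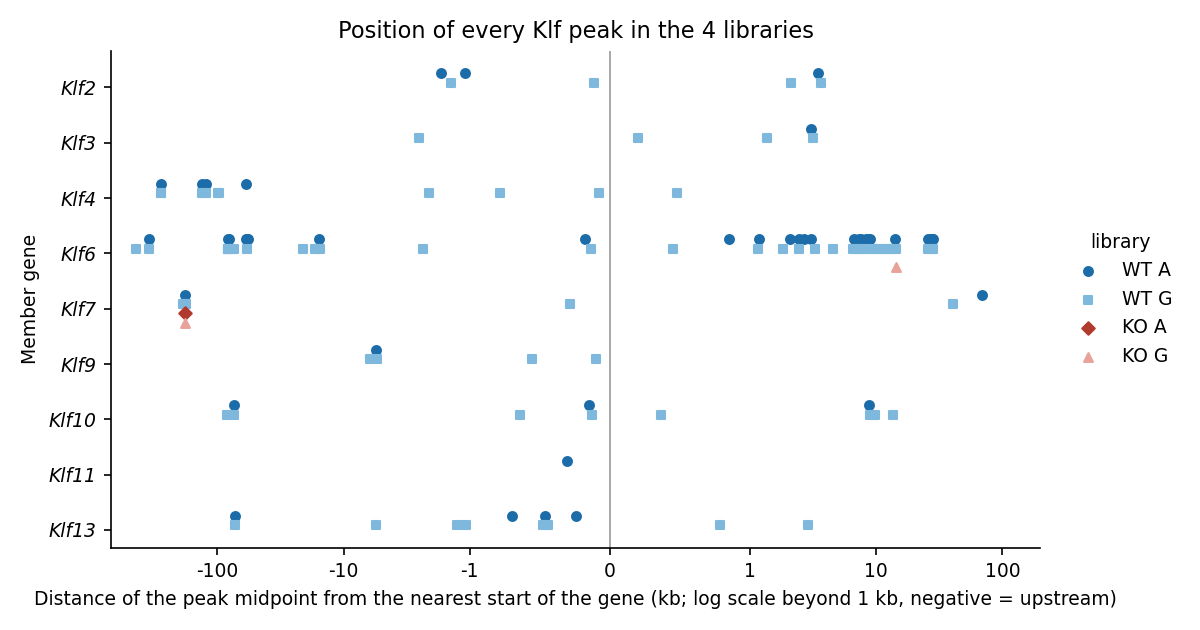
Distance of the midpoint of every KLF peak from the nearest TSS of its gene (x axis, kb, logarithmic beyond 1 kb and linear within, negative upstream), with genes on the y axis and 1 symbol per library. Klf4 peaks of WT A lie only far upstream, while Klf6 peaks of both WT libraries crowd downstream of the TSS.

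Between the WT libraries, 40 of the 45 KLF peaks of WT A overlapped a peak of WT G (88.9%, exact 95% interval 75.9 to 96.3%), beside 83.2% of all WT A peaks. In the other direction 31 of the 76 KLF peaks of WT G overlapped a peak of WT A (40.8%, 29.6 to 52.7%), beside 36.1% of all WT G peaks. In both directions the share over all peaks was within the interval of the KLF share. Where the overlap had to be at least 50% of both peaks, the KLF shares were 24.4% and 14.5%. WT G held 1.69 times as many KLF peaks as WT A, and 2.06 times as many peaks in all, although its estimated depth was lower. From the background level and shortest peak of each list, the depth of WT G was estimated at 0.21 of that of WT A, that of KO A at 0.572 and that of KO G at 0.75. The median KLF peak had 16 fragments at its summit in WT A against 9 in WT G.

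The median KLF region stood at percentile 71.9 of −log10 q in WT A against 72.8 in WT G, where the median of all 3423 regions was 59.2 and 83.3. Fragments at the summit ranged from 13 to 32 in WT A, with a median of 17, and from 6 to 21 in WT G, with a median of 10. In 7 of the 28 regions the WT summits lay within 50 bp of each other, beside 27.4% of all regions.

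**Figure D4:**
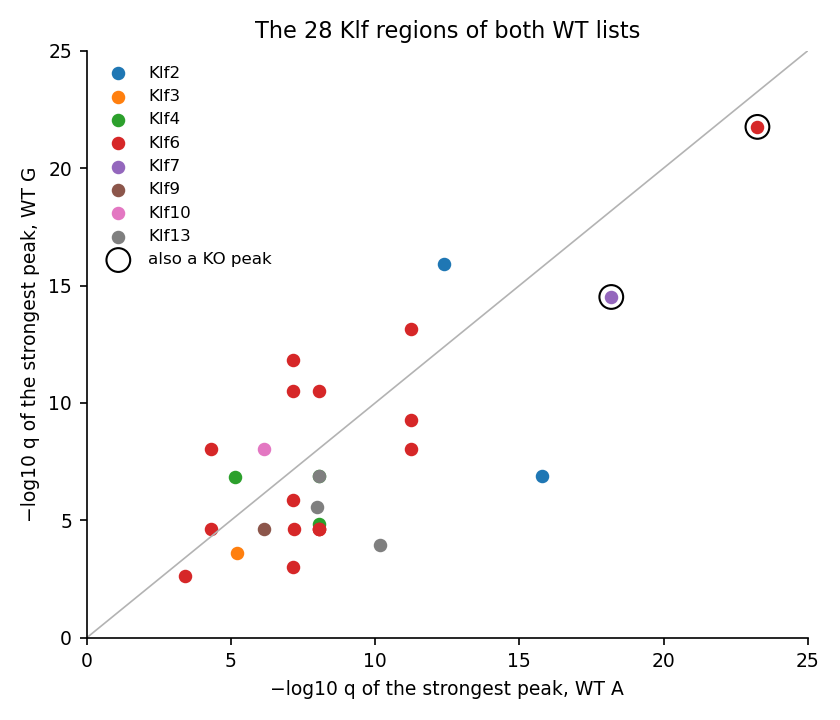
Strength of the 28 KLF regions in WT A (x axis, −log10 q of the strongest peak) and WT G (y axis), coloured by gene, with circles around the regions that overlap a KO peak and a line of equal values. The circled Klf6 and Klf7 regions have the highest lower value of the 28, and the Klf6 promoter region the lowest.

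The position of the regions was then compared with genes. A promoter was taken as 1000 bp upstream to 100 bp downstream of an annotated TSS of any gene type. Of the 28 regions 3 were in promoters (10.7%, 2.27 to 28.2%; 10.8% of all regions), those of Klf6 and Klf13. A promoter of 3 kb on each side of a TSS held 42.9% of the KLF regions and 30.4% of all regions. Another 3 were in exons (10.7%, 2.27 to 28.2%; 4.12%), all at Klf6, 10 in introns (35.7%, 18.6 to 55.9%; 51.8%) and 12 between genes (42.9%, 24.5 to 62.8%; 33.2%). The median distance from the TSS was 8.79 kb, against 15.7 kb for all regions. Without Klf6 it was 7.24 kb over 12 regions, and with starts of all gene types it was 2.45 kb over 13.

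WT G held more KLF peaks in promoters than WT A. It had 14 KLF peaks in promoters of 76 (18.4%, 10.5 to 28.97%; 15.5% of all WT G peaks), and WT A had 6 of 45 (13.3%, 5.05 to 26.8%; 11.1%). Among the KLF peaks found in WT G alone 11 of 45 were in promoters (24.4%, 12.9 to 39.5%), against 18.3% of all its unshared peaks. Among those in WT A alone it was 2 of 5 (interval 5.27 to 85.3%), against 11.9%. Promoters of any gene were counted here. The unshared WT G peaks at 1.37 kb from Klf3, −6.23 kb from Klf9 and −84.0 kb from Klf10 lay in promoters of other genes. The Klf2, Klf4, Klf7 and Klf9 promoters had a peak in WT G alone and the Klf11 promoter in WT A alone. All 4 intervals included the share over all peaks of the list.

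The number of KLF peaks was then set side by side for the genotypes, as a description, because the genes were chosen for peaks in these lists. The WT libraries held 60.5 ± 21.9 peaks (SD, n = 2 libraries) and the KO libraries 1.5 ± 0.71 (SD, n = 2 libraries), a ratio of 40.3. The ranges of these counts in WT and KO did not overlap. No p is read from these counts, since a two-sided exact permutation test of 2 against 2 libraries cannot go below 0.333 and would use the values that chose the genes. Over all peaks the ratio was 49.9, and the percentage of peaks that lay near them was 0.947 and 0.778 in WT and 1.20 and 0.962 in KO.

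Of the 28 KLF regions 2 overlapped a KO peak (7.14%, 0.877 to 23.5%), beside 5.87% of all regions. They were the strongest region of Klf6 and that of Klf7. The nearest starts of any gene type belonged to Gm47507 and Gm28981, and the KO peaks were narrower than the overlap of 50% asks for, so under either setting the share was 0%. With a library left out the share was 2.63% without WT A and 4.44% without WT G, where every peak of the other WT list is a region. It was 7.14% without KO A and 3.57% without KO G. At the Klf7 region −log10 q was 6.15 in KO A and 6.31 in KO G, with a fold enrichment of 7.12 and 7.23, and each KO library had 13 fragments at the summit. WT A had 28 fragments there and WT G 16. At the Klf6 region KO G had 10 fragments, −log10 q of 3.16 and a fold enrichment of 5.68, and KO A had no peak. WT A had 32 fragments there and WT G 21.

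Depth was set beside these numbers as a description. The regions were kept for having a peak in both WT lists, and the WT height is that of the strongest peak, so heights in KO are held against values selected to be high. If a KLF region kept its WT A height at the estimated depth of KO G, it would have 9.75 to 24.0 fragments, and the lowest summit in the KO G list had 8. All 28 regions reached that height and 26 of them had no peak in KO G (92.9%), beside 94.7% of all 3423 regions, which also all reached it. In KO A the scaled heights were 7.44 to 18.3 against a lowest summit of 10. There 12 regions reached it, of which 11 had no peak. The other 16 fell below it. Scaled from WT G instead, the heights in KO A were 16.4 to 57.4 fragments, all 28 regions reached the lowest summit and 27 of them had no peak, so the number depends on the WT library used. At the Klf7 region the scaled heights were 16.03 in KO A and 21.0 in KO G, above the 13 fragments estimated from the KO peak in each. At the Klf6 region the scaled height in KO G was 24.0, above the 10 estimated from the KO G peak. Over all 3423 regions, 46.6% reached the lowest summit of KO A when scaled from WT A and 100% when scaled from WT G, and 95.4% and 97.8% of those had no peak there. All heights and depths here are estimates from the peak values.

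**Figure D5:**
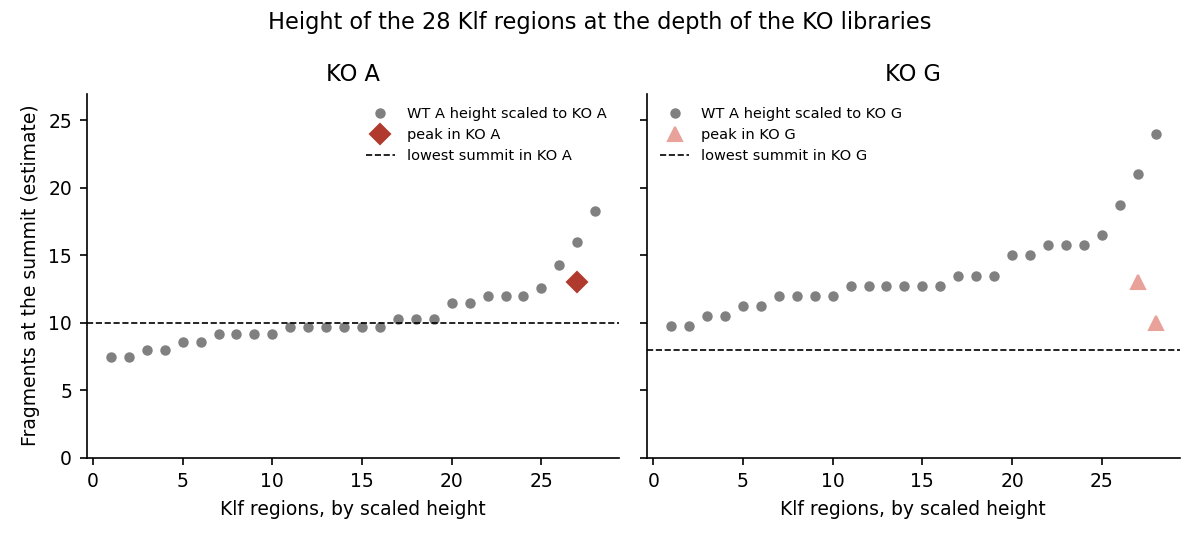
Estimated fragments at the summit (y axis) of the 28 KLF regions, ordered by height (x axis), if WT A heights are scaled to the depth of KO A (left) or KO G (right), with the heights estimated from the KO peaks themselves (coloured) and the lowest summit of each KO list (dashed line). All scaled heights exceed the line in KO G and 12 do in KO A, and the height of each KO peak lies below the scaled height of its own region.

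Motifs were searched on both strands within 50 bp of each region's summit, taken from the WT library with the higher −log10 q there. The summits of the WT libraries lay a median of 131.5 bp apart and within 50 bp in 7 of 28 regions. The shares therefore describe the summit of a single library in each region. DR1, DR2, DR4 and DR5, the hexamer AGGTCA repeated with 1, 2, 4 or 5 bases between, were allowed 2 mismatches. A DR1 match was present in 1 of 28 KLF regions (3.57%, 0.0904 to 18.3%), beside 6.34% of all regions. DR2, DR4 and DR5 were found in 0 of 28, which has an upper limit of 12.3%, beside 2.54%, 1.9% and 2.57%. The C/EBP motif TTGCNNAA was found in 3 regions, at Klf4, Klf6 and Klf13 (10.7%; 11% of all). The PU.1 motif GAGGAAGT was found in 2, at Klf2 and Klf4 (7.14%; 4.38%), and the AP-1 motif TGANTCA in 2, at Klf6 and Klf7 (7.14%; 7.51%). The RUNX motif TGTGGTT was found in 1, at Klf4 (3.57%; 5.93%), the GC box GGGCGG in 1, at Klf13 (3.57%; 1.96%), and the CACCC box CCACCC in 2, at Klf4 and Klf13 (7.14%; 9.29%). For each of the 10 motifs the share over all regions lay within the exact 95% interval of the KLF share. A match is only a description of the sequence. Median GC content of the windows was 42.6% for the KLF regions and 45.5% for all regions.

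The rest of the family was counted in the same way, and nothing is read from its lower numbers, since the 9 genes were chosen for their peaks. Among the other 8 KLF genes only Klf14 had any region (12.5% of them, beside 8.82% of all genes), with 6 regions, 7 peaks in WT A against 10 in WT G, at −119.6 to −156 kb from its TSS. The nearest start of any gene type was that of Lncpint or 5330406M23Rik in all 6, and 3 lay in an intron of Lncpint. The strongest had −log10 q of 10.2 in WT A against 8.04 in WT G. Of the 9 SP genes, whose proteins share the GC-box binding zinc fingers, 3 had 1 region each. These were Sp1 at −12.6 kb, Sp2 at 1.43 kb in its intron, with −log10 q of 24.6 in WT A against 15.5 in WT G, and Sp4 at 32.9 kb. None of these regions overlapped a KO peak. Of the 6 genes for KLF cofactors (CtBP, SIN3 and the acetyltransferases p300 and CBP) 0 had a region in both WT lists, and 2 peaks lay nearest to them, both in WT G.

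Other transcription factor families were set beside the KLF genes by counts alone. The 6 C/EBP genes had 19 regions, of which 15 were at Cebpb, and 3 overlapped a KO peak. The 3 RUNX genes had 11 regions, of which 1 overlapped a KO peak, and the 7 AP-1 genes had 23, also with 1. Per 100 kb of genome nearest to their TSSs the KLF genes had 0.921 regions, without Klf6 0.58, the C/EBP genes 3.82, the RUNX genes 0.77 and the AP-1 genes 3.12. Cebpb alone had 11.1 per 100 kb and so carried much of the C/EBP value. All protein-coding genes together had 0.126. The gene most like Klf6 in its number of peaks over the 4 libraries was Cebpb (25, 33, 2 and 3), with a summed difference of 5. Zfp608 and Trib1 followed at 16, Tomm20 at 18 and Cd44 at 20. Klf13, which tied with Klf4 at 3 regions and was taken by symbol, had 10 genes with exactly its peak numbers (4, 8, 0 and 0), among them Tmem135, Laptm5, Nanos3, Ppp2ca and Gm10382.

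Marker genes of cell types were counted as a description. Of 8 AM genes 7 (Pparg, Siglecf, Itgax, Marco, Chil3, Fabp1 and Car4, but not Ear2) had a region in both WT lists, beside 8.82% of all genes. The paper lists Pparg, Siglecf and Fabp1 among genes it assumes RXRs control directly, from the same assay. The count is therefore no check of which cells were sorted. Of 11 genes of neutrophils, monocytes, lymphocytes and epithelium 2 had one, Cx3cr1 and Scgb1a1 (18.2%). Of those without a region, S100a8 had 1 peak and Ccr2 3 peaks in WT G alone, and Ly6c2 had 1 peak in WT A, with −log10 q of 26.4, and 1 in KO G. Peaks give no expression, and the part of other cells in the KLF peaks was not tested.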

How the data were processed

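RXRα HT-ChIPmentation libraries of sorted AMs (WT A, WT G, KO A, KO G) and 1 input were used, grouped by the genotype in the labels. The authors trimmed reads with Cutadapt, aligned them to mm10 with Bowtie2, kept non-duplicate proper pairs with SAMtools and called peaks per sample against the input with MACS3. Replicates were not pooled. The deposited lists give, per peak, a score (10 times −log10 q, whole part), the fold enrichment at the summit as a ratio, the −log10 p and −log10 q values, and the summit position. The largest q value in any list was 0.0447.

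Peaks were assigned by midpoint to the nearest protein-coding TSS of GENCODE. WT peaks sharing at least 1 bp were merged. Fragments at the summit were solved from fold enrichment and −log10 p, which are both functions of pileup and local background, and relative depth was estimated from the background level and the shortest peak. Solving for fragments was checked on simulated data, and the depth estimate was not. The study's count-based comparison of genotypes was not possible without read counts, so the numbers of peaks are given as a description. The exact permutation test planned for them uses the values that chose the genes and cannot go below 0.333 with 2 against 2 libraries.

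The members and lists were chosen with earlier results of these data known. Genes were named by rule: the 9 members, their strongest and KO-overlapping regions, family genes with a region in both WT lists, and the 5 genes with the nearest peak numbers for Klf6 and Klf13. Alternatives were the assigning point, TSS set, overlap, q threshold, list length, promoter and motif windows, left-out libraries and a replicate block. Scripts ran in Python 3.11.15 with scipy 1.17.1, pandas 2.3.3, matplotlib 3.10.9 and numpy 2.4.6.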

Additional observations from a re-analysis of the deposited data

How the results depend on the processing

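Of 77 alternative values 56 were labelled the same as the reported value, 21 moved and 0 reversed. Shares were the same if within the exact interval, and median distances if within the spread between the WT lists. Counts were judged by fold change and the WT to KO ratio by direction alone, so neither was held to an interval or spread. Only the ratio could be labelled reversed. The WT to KO ratio was 30 to 60.5 when 1 library was left out and 41.4 with a replicate block that paired the letters A and G. Its direction was fixed by the choice of genes and is no sign of stability. Whether the letters pair the libraries was not given in the sources used here. With genes of all biotypes KO libraries had 0 KLF peaks, so no ratio was computed.

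With genes of all biotypes, the KLF regions fell to 13, the genes with a region to 4 and the Klf6 regions to 8. The median distance was then 2.45 kb and the share with a KO peak 0%. With an overlap of at least 50% of both peaks, there were 10 KLF regions, 5 genes and 5 Klf6 regions. The shares were then 24.4% of WT A peaks in WT G, 14.5% of WT G peaks in WT A and 0% with a KO peak. With 1 WT library left out, a region is any peak of the other: 45 (WT A) to 76 (WT G) regions, and a median distance of 8.09 to 8.81 kb. When WT G was reduced to as many peaks as WT A, 53.1% of its KLF peaks overlapped WT A. A promoter of 3 kb on each side of a TSS held 42.9% of the regions. At most 1 mismatch left 0% with a DR1 match. The median distance was 10.6 kb with 1 TSS per gene and 11.6 kb with −log10 q of at least 3. Low fragment counts limit single peaks, most of all in WT G.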
